A study of Mus musculus with 6 samples.

Results

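The 40 genes described here encode the machinery that copies DNA at the replication fork and the enzymes that supply it with deoxynucleotides, and they were followed in cultured mouse neural stem and progenitor cells. They are a list of gene symbols assembled by function, with earlier results of these data known. They make up 40 of the 17254 gene identifiers in the deposited tables. The cells were grown in N2 medium with EGF and bFGF and were sampled after 48 h with PQ, with NAC or as controls, with 2 RNA sequencing libraries in each of the 3 groups. The series text says that the treatments were meant to set different redox states inside the cells. The labels give PQ and NAC only as abbreviations, and state no dose, mouse strain, genotype, sex or age. Separate cultures are not stated for the replicate libraries, and p-values therefore measure library-to-library spread, which may be technical.

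At each fork, the MCM helicase with CDC45 and GINS opens the double helix, polymerase alpha with primase lays down RNA-DNA primers, and polymerases epsilon and delta extend the leading and the lagging strand. The sliding clamp PCNA holds the polymerases on the template, RPA coats the exposed single strands, and ribonucleotide reductase makes the deoxynucleotides that limit the pace of synthesis. Many of these genes are transcribed as cells enter S phase, under control of E2F factors, and neural stem cells express them while they cycle.

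Summed expected counts were 9680436 to 10698241 per library, and each of the 40 genes was detected in all 6 libraries and passed the filter on low counts, the lowest with 82 counts. Levels are given as CPM, expected counts divided by the TMM-scaled total of their library, and levels of different genes are compared only as FPKM, which also divides by transcript length. Of 11 neural stem and progenitor markers 10 passed the filter (not Hes5), and their summed level was 6919 to 7150 CPM with PQ, 4817 to 4860 CPM with NAC and 6509 to 6647 CPM in controls. Of the markers of other cells, the neuronal Rbfox3, the oligodendrocyte Mog and Mag and the endothelial Cldn5 were listed at 0 in every library. The summed levels of the oligodendrocyte, microglia and blood, and endothelial lists stayed at or below 4.47 CPM, and the fibroblast list held 18.5 to 31.4 CPM. The neuronal list, of which 3 of 7 genes passed the filter, summed to 184 to 194 CPM with PQ, 320.3 to 360.5 CPM with NAC and 199 to 209 CPM in controls, nearly all of it Map2. The 5 astrocyte genes summed to 493 to 537 CPM with PQ, 324 to 333 CPM with NAC and 407 to 423 CPM in controls, most of it Gja1. The genes of that list moved in both directions with NAC. Gfap, Aqp4 and S100b were higher in both NAC libraries than in both controls, while Gja1 and Aldh1l1 were lower. Gfap had 11.0 and 13.8 CPM with NAC, against 5.96 and 4.57 CPM in controls. Aqp4 had 13.5 and 12.9 CPM with NAC, against 3.64 and 4.16 CPM in controls. Aldh1l1 had 3.43 and 2.08 CPM with NAC, against 4.24 and 3.53 CPM in controls. The part of these shifts in the results on replication genes was not tested, and in such bulk samples fewer cells of a type cannot be told apart from less RNA per cell.

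Promoter windows from RefSeq (build GRCm38.p6, 250 bases before to 50 bases after the annotated start) were matched for 34 of the 40 genes, with 39 windows in all because 4 genes have several. Prim2, Pole, Rfc2, Gins1, Gins4 and Tipin had no entry. An E2F motif, taken as TTTCCCGC, TTTCGCGC, TTTGCCGC or TTTGGCGC on either strand, was present in 9 of the 34 genes and in 23.1% of the 39 windows, against 2.26% of all 32851 windows of the same length. The CCAAT box (CCAAT on either strand) was present in 48.7% of the 39 windows, against 37.4% of all windows. The cell cycle homology element searched as TTTGAA was present in 17.9% of the 39 windows, against 17.9% of all windows. No match of one motif overlapped a match of another. The windows of Pold1, Lig1, Clspn, Pola1 and Orc1 are shown because each holds 1 E2F match, in capitals, and because the first 4 genes were lower with PQ while Orc1 did not pass the test in that comparison.
Pold1: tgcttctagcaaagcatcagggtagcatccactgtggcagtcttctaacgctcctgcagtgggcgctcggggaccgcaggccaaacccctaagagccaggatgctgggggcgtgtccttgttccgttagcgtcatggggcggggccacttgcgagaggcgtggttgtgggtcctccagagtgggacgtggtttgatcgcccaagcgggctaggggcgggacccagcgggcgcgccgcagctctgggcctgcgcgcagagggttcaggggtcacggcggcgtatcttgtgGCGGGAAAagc
Lig1: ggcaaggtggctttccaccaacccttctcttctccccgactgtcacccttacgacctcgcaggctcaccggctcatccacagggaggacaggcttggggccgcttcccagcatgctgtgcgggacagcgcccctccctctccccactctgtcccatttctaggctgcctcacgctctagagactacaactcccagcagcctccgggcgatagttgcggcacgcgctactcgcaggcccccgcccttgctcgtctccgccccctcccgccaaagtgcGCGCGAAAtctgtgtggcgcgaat
Clspn: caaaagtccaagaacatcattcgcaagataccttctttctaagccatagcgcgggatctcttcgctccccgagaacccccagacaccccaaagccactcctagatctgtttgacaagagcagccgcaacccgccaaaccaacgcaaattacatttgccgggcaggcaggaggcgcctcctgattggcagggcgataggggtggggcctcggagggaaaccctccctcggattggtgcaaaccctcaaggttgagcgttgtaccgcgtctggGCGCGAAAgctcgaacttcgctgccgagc
Pola1: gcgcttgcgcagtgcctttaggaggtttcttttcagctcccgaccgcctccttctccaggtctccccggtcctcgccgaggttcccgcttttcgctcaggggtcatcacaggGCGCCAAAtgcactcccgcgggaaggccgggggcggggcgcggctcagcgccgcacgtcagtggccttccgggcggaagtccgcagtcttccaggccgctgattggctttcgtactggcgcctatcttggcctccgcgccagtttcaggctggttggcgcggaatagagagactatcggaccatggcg
Orc1: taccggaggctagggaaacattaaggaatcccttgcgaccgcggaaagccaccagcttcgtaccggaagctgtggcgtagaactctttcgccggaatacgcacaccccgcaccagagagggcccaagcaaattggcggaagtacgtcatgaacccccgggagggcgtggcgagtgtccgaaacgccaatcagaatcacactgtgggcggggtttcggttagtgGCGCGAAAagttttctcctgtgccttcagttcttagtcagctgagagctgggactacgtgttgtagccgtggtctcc
The Pold1 window is the minus strand of chr7:44548766-44549065, and its E2F match begins at position 40, counted from 1 at the annotated start, inside the transcribed part. Matches on the other strand, as in all 5 windows, appear as their reverse complement. The Lig1 window shown, on the plus strand at chr7:13278576-13278875, has its match at position 27, and the Clspn window, on the plus strand at chr4:126556730-126557029, at position 22. Lig1 is 1 of the 4 genes with several windows, and its other windows, which begin at 13276925 and 13279015, hold no E2F match. Pola1, on the minus strand at chrX:93632106-93632405, has its match 138 bases before the start, and Orc1, on the plus strand at chr4:108579204-108579503, has it 27 bases before. Positions are counted from the start used for the window shown. The annotated genes of Pola1 and Orc1 reach further upstream, to 93632387 and 108575705, so both matches lie within the annotated gene spans. The E2F letters were found in 7 of the 28 genes with a window that were lower with PQ and in 2 of the 6 that were not called. The CCAAT letters were found in 13 of those 28 genes and in 6 of those 6. These matches describe the letters in the windows, and binding was not measured.

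In control cultures the genes spanned FPKM levels from Pcna, at 231 ± 15.3 FPKM (SD, n = 2), to Gins3, at 4.06 ± 0.141 FPKM. After Pcna, the highest levels were those of the ribonucleotide reductase subunits, Rrm2 at 143 ± 3.64 FPKM and Rrm1 at 108 ± 7.45 FPKM, and of Rpa1, the large RPA subunit, at 99.7 ± 0.361 FPKM. These 4 genes held 37.6% of the summed FPKM of the list. The median was 28.0 FPKM, and Timeless (10.3 FPKM), Pole, the catalytic subunit of polymerase epsilon (9.25 FPKM), Ticrr (8.32 FPKM), Orc1 (4.75 FPKM) and Gins3 stood at the low end. The top 5 positions, Pcna, Rrm2, Rrm1, Rpa1 and Tipin (62.7 FPKM), had control libraries whose range did not overlap that of the next gene below. Over the whole order 12 of 39 neighbouring pairs had ranges that did not overlap, and the ranges of the others overlapped.

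**Figure D1:**
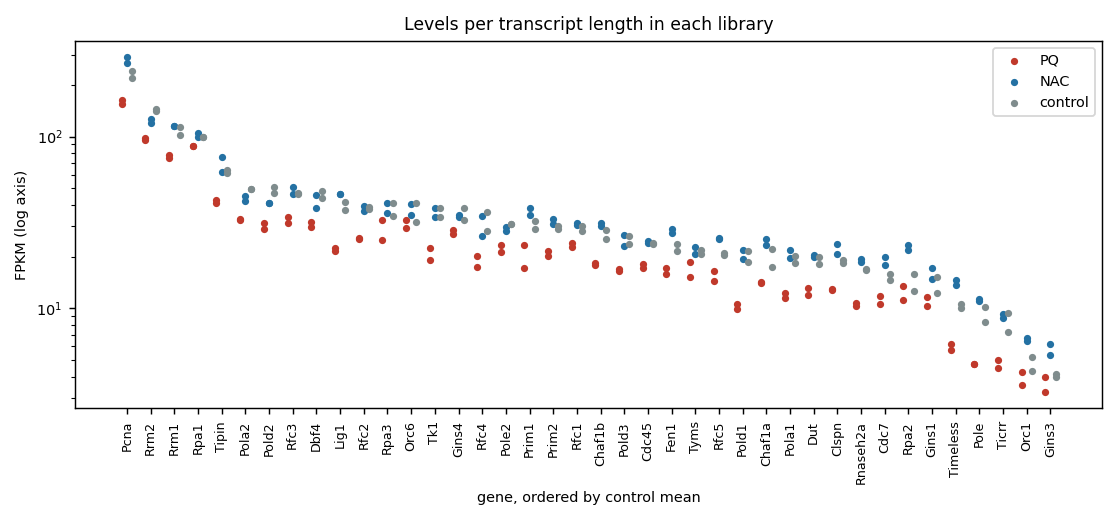
FPKM of the 40 genes in each library (log axis), ordered by the control mean, with PQ, NAC and control as colours and 1 point per library. Levels span Pcna at 231 FPKM to Gins3 at 4.06 FPKM in controls, and most PQ points lie below the NAC and control points of the same gene.

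With PQ the replication genes were lower nearly throughout. Of the 40 genes 33 fell and 0 rose against control (edgeR quasi-likelihood test, adjusted p under 0.05), where 8.8% of all 12813 genes tested fell and 9.07% rose. No gene rose at an unadjusted p under 0.05, under DESeq2 or under limma either. All 40 fold changes were negative, and for 38 genes both PQ libraries lay below both control libraries, where 28.2% of all genes did. For 0 genes did both PQ libraries lie above both controls, where 29% of all genes did. The median log2 fold change was -0.57, against -0.00 over all genes tested. Because the list was chosen with earlier results of these data known, these contrasts with all genes are descriptive and not an independent test. The summed CPM of the list was 2501 and 2406 in PQ libraries, 3805 and 3568 in NAC libraries, and 3636 and 3534 in control libraries. The proliferation gene Mki67 had 520.4 and 450.2 CPM with PQ and 1082 and 1055 CPM in controls, a log2 fold change of -1.14 ± 0.10 (SE, adjusted p = 7.9e-07). Cdkn1a, which encodes the CDK inhibitor p21, had 1032 and 1084 CPM with PQ and 468 and 473 CPM in controls, a log2 fold change of 1.17 ± 0.09 (adjusted p = 4.3e-07). The part of these cell cycle measures in the fall of the replication genes was not tested.

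**Figure D2:**
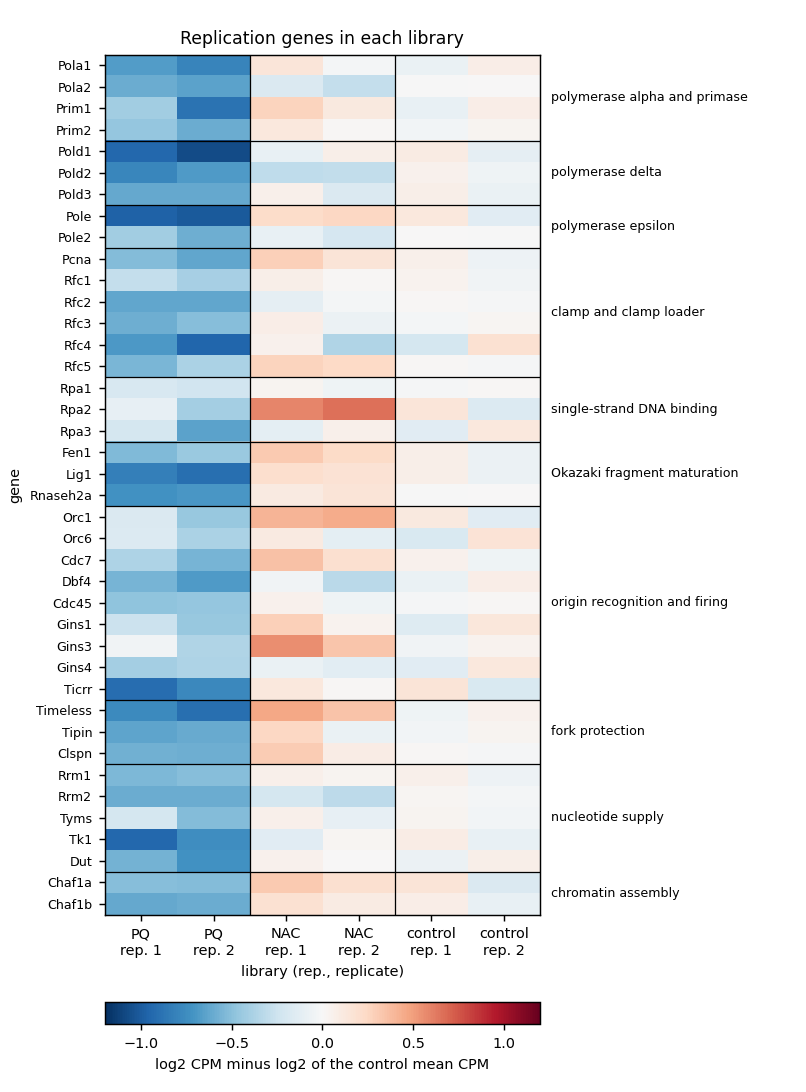
Each of the 40 genes (rows, grouped by role) in each of the 6 libraries (columns), as log2 CPM minus log2 of the control mean CPM, with blue below and red above the control mean. Both PQ columns are blue for most genes, deep for Pold1, Pole, Lig1 and Ticrr, and pale for Rpa1, while Rpa2 and Timeless are red in both NAC columns.

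Every gene of the 3 replicative polymerases in the list fell with PQ. Their subunits outside the list did not pass: Pold4 (log2 fold change 0.06, adjusted p = 0.78), Pole3 (-0.22, 0.31) and Pole4 (-0.10, 0.63). Pold1, the catalytic subunit of polymerase delta, had 36.7 and 33.6 CPM with PQ, against 75.8 and 65.5 CPM in controls. This was the largest fall of the list, 2.01-fold (log2 fold change -1.01 ± 0.11, adjusted p = 1.1e-05), and the groups did not overlap. Pole had 34.8 and 33.9 CPM with PQ, against 74.6 and 61.9 CPM in controls, a 1.99-fold fall (-0.99 ± 0.11, adjusted p = 1.2e-05). Its non-catalytic partner Pole2 had 39.9 and 35.4 CPM with PQ, against 53.3 and 53.2 CPM in controls. It fell by 0.50 ± 0.11 on the log2 scale (adjusted p = 0.0042), a call lost without PQ replicate 2 (adjusted p = 0.095, range over the alternatives 0.0007 to 0.095). Pold3, an accessory subunit of polymerase delta, had 50.3 and 50.4 CPM with PQ, against 81.0 and 73.0 CPM in controls, and fell by 0.61 ± 0.11 (adjusted p = 0.00074). All 4 genes of polymerase alpha and primase also fell. Pola1, the catalytic subunit, had 66.7 and 61.0 CPM with PQ, against 99.95 and 112 CPM in controls, a 1.66-fold fall (adjusted p = 0.00014). Prim2, the large primase subunit, had 42.0 and 38.2 CPM with PQ, against 56.6 and 59.2 CPM in controls, a 1.44-fold fall (adjusted p = 0.0022). The calls of Prim2 and of Prim1, the catalytic primase subunit, were lost without PQ replicate 2, at adjusted p = 0.062 (range 0.00019 to 0.062) and 0.12 (range 1.3e-05 to 0.12). Without that library the fall of Prim1 was 0.41 on the log2 scale, against 0.63 with all libraries.

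The clamp and the 5 subunits of its loader fell as well. Pcna had a mean of 197 ± 9.83 CPM with PQ and 293 ± 17.6 CPM in controls (SD, n = 2 each), a 1.48-fold fall (adjusted p = 0.00044). In the RFC clamp loader Rfc4 had the largest fold change, with 24.8 and 20.7 CPM with PQ, against 34.6 and 45.4 CPM in controls (log2 fold change -0.82 ± 0.16, adjusted p = 0.0016). Rfc1, the large subunit, had the smallest, with 116 and 107 CPM with PQ, against 146 and 137 CPM in controls (-0.34 ± 0.10, adjusted p = 0.018). The groups did not overlap for either gene, but the call of Rfc1 was lost without control replicate 1 (adjusted p = 0.07), PQ replicate 1 (0.055) or PQ replicate 2 (0.21), over a range of 0.011 to 0.21. Rfc2 and Rfc3 fell by 0.62 and 0.55, and Rfc5 by 0.46, a call lost without PQ replicate 1 (adjusted p = 0.12, range 0.0062 to 0.12).

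RPA did not pass the test in any subunit with PQ. Rpa1 had 274 and 266 CPM with PQ, against 309.8 and 314 CPM in controls (log2 fold change -0.21 ± 0.09, adjusted p = 0.11). The groups of Rpa1 were separate, and the interval of its log2 fold change ran from -0.39 to -0.03, 2 SE on each side. Rpa3, the smallest subunit, had 20.8 and 15.5 CPM with PQ, against 21.9 and 26.4 CPM in controls (-0.42 ± 0.16, adjusted p = 0.085). It passed with no filter on low counts (adjusted p = 0.042), without control replicate 1 (0.032) and without PQ replicate 1 (0.04), over a range of 0.032 to 0.58. Rpa2, the middle subunit, had 24.0 and 19.5 CPM with PQ, against 28.6 and 23.0 CPM in controls, and the groups overlapped (-0.25 ± 0.15, adjusted p = 0.27).

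The enzymes that finish lagging strand fragments fell. Lig1, the ligase that seals them, had 70.8 and 66.9 CPM with PQ, against 131 and 119 CPM in controls, a 1.82-fold fall (adjusted p = 1.2e-05). Rnaseh2a, the catalytic subunit of an enzyme that removes ribonucleotides from DNA, fell by 0.71 ± 0.12 (adjusted p = 0.00057). Fen1, the flap endonuclease, had 34.5 and 36.6 CPM with PQ, against 52.4 and 47.6 CPM in controls. Its groups were separate, and its fall of 0.49 ± 0.11 (adjusted p = 0.0048) was lost without PQ replicate 1 (adjusted p = 0.055, range 0.001 to 0.055).

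Genes of origin recognition and firing were divided, with 5 of 9 lower and 4 not called with PQ. Ticrr, also called Treslin, which helps to load CDC45 onto origins, fell most, with 32.9 and 36.1 CPM with PQ, against 69.0 and 54.6 CPM in controls (-0.84 ± 0.12, adjusted p = 0.00015). Dbf4, the activating subunit of the kinase that fires origins, fell by 0.62 ± 0.11 (adjusted p = 0.00078). Its catalytic partner Cdc7 fell by 0.46 ± 0.12 (adjusted p = 0.01), a call lost without PQ replicate 2 (adjusted p = 0.16, range 0.0028 to 0.16). Cdc45 fell by 0.47 ± 0.11 (adjusted p = 0.0052), also lost without PQ replicate 2 (0.055, range 0.0017 to 0.055). Among GINS subunits Gins4 fell by 0.39 ± 0.12 (adjusted p = 0.027), with 36.9 and 37.8 CPM with PQ, against 44.6 and 53.3 CPM in controls. That call was lost under DESeq2 (adjusted p = 0.066) and without PQ replicate 1 (0.13), PQ replicate 2 (0.14) or control replicate 2 (0.23, where the fall was 0.25), over a range of 0.0059 to 0.23. Gins1 (-0.35 ± 0.17, adjusted p = 0.17) and Gins3 did not pass. Gins3 had 9.68 and 7.79 CPM with PQ, against 9.70 and 10.3 CPM in controls (-0.20 ± 0.19, adjusted p = 0.52). Orc1, the ATPase subunit of the origin recognition complex, had 13.0 and 10.7 CPM with PQ, against 16.0 and 13.4 CPM in controls (-0.31 ± 0.17, adjusted p = 0.22). Orc6, its smallest subunit, had 53.8 and 46.5 CPM with PQ, against 53.3 and 67.4 CPM in controls, with groups that overlapped (-0.27 ± 0.13, adjusted p = 0.16). Orc6 passed without control replicate 1 (adjusted p = 0.023). The other subunits of the polymerase and origin recognition complexes outside the list are Pold4, Pole3, Pole4 and Orc2 to Orc5. They were singled out after their values were seen. None passed the test with PQ, with log2 fold changes of -0.27 to 0.06.

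The 3 fork protection genes fell, as did the 5 nucleotide supply genes and the pair for chromatin assembly. Timeless, which steadies the fork together with Tipin, had 28.0 and 25.4 CPM with PQ, against 45.9 and 49.1 CPM in controls, a 1.78-fold fall (adjusted p = 9.5e-05). Clspn, which encodes the checkpoint adaptor claspin, had 64.7 and 64.3 CPM with PQ, against 97.5 and 95.2 CPM in controls (-0.58 ± 0.10, adjusted p = 0.00073), and Tipin fell by 0.62 ± 0.11. Both ribonucleotide reductase subunits of the S phase enzyme fell, Rrm1, the catalytic one, 1.44-fold (adjusted p = 0.00051) and Rrm2, the small one, 1.51-fold (adjusted p = 0.00019). Tk1, thymidine kinase of the salvage route, had 26.3 and 30.3 CPM with PQ, against 53.8 and 47.6 CPM in controls, a 1.79-fold fall (adjusted p = 0.00014). Tyms, which makes thymidylate from deoxyuridylate, had 71.9 and 57.8 CPM with PQ, against 85.1 and 81.1 CPM in controls (-0.36 ± 0.11, adjusted p = 0.034). The call of Tyms was lost under DESeq2 (adjusted p = 0.06), both limma settings (0.091 and 0.088), without control replicate 1 (0.087) and without PQ replicate 2 (0.42, where the fall was 0.21), over a range of 0.012 to 0.42. Dut, which removes dUTP, fell by 0.64 ± 0.12 (adjusted p = 0.00088). Chaf1a and Chaf1b, subunits of the CAF-1 histone chaperone, had 46.8 and 46.5 CPM and 34.2 and 34.7 CPM with PQ, against 74.5 and 59.2 CPM and 55.4 and 49.3 CPM in controls. Their log2 fold changes were -0.52 ± 0.12 (adjusted p = 0.0046) and -0.60 ± 0.11 (adjusted p = 0.00099). The call of Chaf1a was lost without control replicate 1 (adjusted p = 0.058, where the fall was 0.35) or PQ replicate 2 (0.058), over a range of 0.00015 to 0.058. Of its exonic bases 52.5% are shared with Ubxn6 on the opposite strand, and whether counting used the strand is not given in the sources used here. Ubxn6 had a log2 fold change of 0.18 ± 0.12 with PQ (adjusted p = 0.35). Another 10 genes of the list share 0.51% to 15.1% of their exonic bases with a gene on the opposite strand, with the largest shares in Rfc2, Rfc4 and Rfc5. A Tyms pseudogene was listed with at most 7.39 counts in a library, and reads could be split between it and Tyms.

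**Figure D3:**
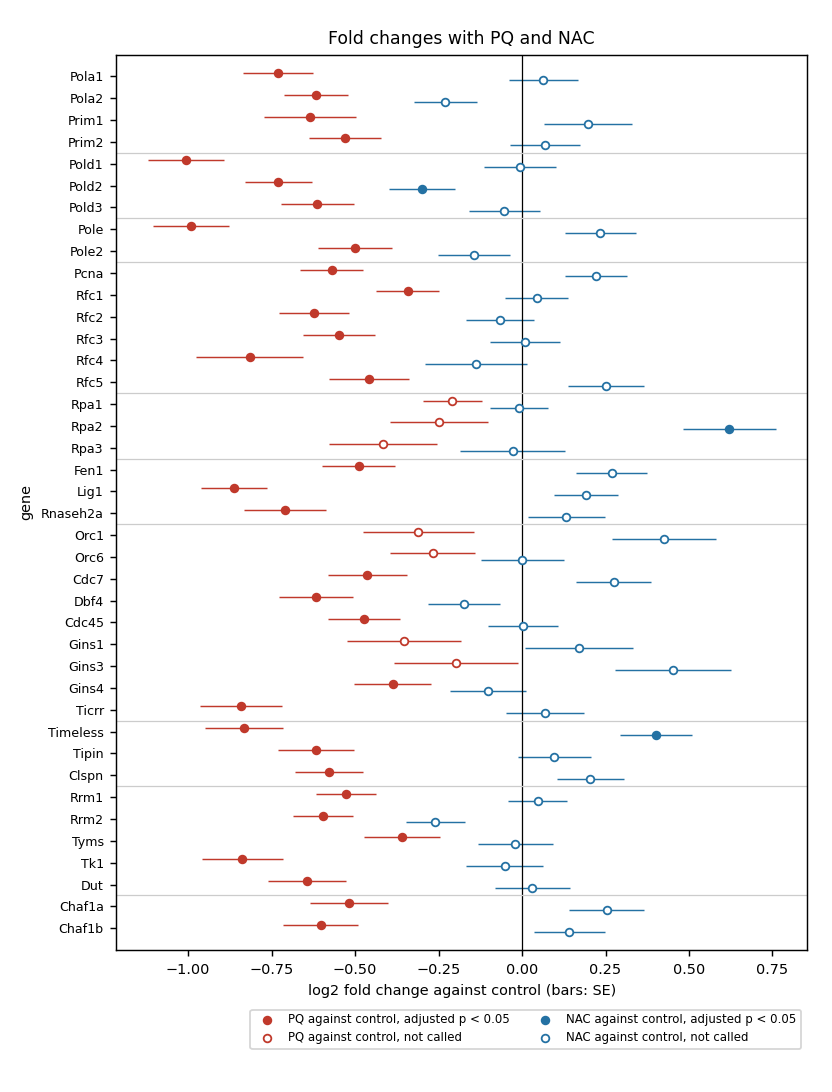
Log2 fold changes of the 40 genes with PQ (red) and with NAC (blue) against control, grouped by role, with filled points for adjusted p under 0.05 and bars for SE. All PQ points lie left of 0, from -1.01 for Pold1 to -0.20 for Gins3, while NAC points lie on both sides, from -0.30 for Pold2 to 0.62 for Rpa2.

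Of the 33 genes called lower with PQ, 22 were called whichever single library was left out, and 11 were lost in at least 1 of these fits. The lost ones were Prim1, Prim2, Pole2, Rfc1, Rfc5, Fen1, Cdc7, Cdc45, Gins4, Tyms and Chaf1a. A group reduced to 1 library was assumed to vary like the others in such fits.

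With NAC few of the replication genes passed the test. Of the 40 genes 2 rose, Rpa2 and Timeless, 1 fell, Pold2, and 37 did not pass, where 8.65% of all genes tested rose and 9.26% fell. The signs were 26 positive and 14 negative, with a median log2 fold change of 0.06, against -0.00 over all genes. Both NAC libraries lay above both control libraries for 15 genes and below them for 5, where 28.3% of all genes did so in each direction. The counts depended on single libraries. Without control replicate 1 there were 4 higher and 0 lower, without NAC replicate 1 there were 1 higher and 0 lower, and without NAC replicate 2, PQ replicate 1 or PQ replicate 2 there were 2 higher and 0 lower. Mki67 had 1366 and 1190 CPM with NAC and 1082 and 1055 CPM in controls (log2 fold change 0.26 ± 0.10, adjusted p = 0.074). Its groups did not overlap, and of the alternatives only library size scaling (adjusted p = 0.028) and no filter on low counts (0.026) called it. Cdkn1a had 223 and 255 CPM with NAC and 468 and 473 CPM in controls, a fall of 0.98 ± 0.09 (adjusted p = 8e-07). The comparisons of PQ and of NAC share the control libraries, so their fold changes are not independent.

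Rpa2 had 38.7 and 40.7 CPM with NAC, against 28.6 and 23.0 CPM in controls. Both NAC libraries stood above both controls, a 1.54-fold rise (log2 fold change 0.62 ± 0.14, adjusted p = 0.004) that was called in every alternative tried (adjusted p 9.1e-05 to 0.035). Its partner Rpa1 had 318 and 301 CPM with NAC, against 309.8 and 314 CPM in controls (-0.01 ± 0.09, adjusted p = 0.96), and Rpa3 had 22.2 and 25.2 CPM, against 21.9 and 26.4 CPM (-0.03 ± 0.16, adjusted p = 0.93). The FPKM ratio of Rpa2 to Rpa1 was 0.152 and 0.127 with PQ, 0.210 and 0.234 with NAC, and 0.1598 and 0.127 in controls. NAC libraries thus stood apart in the share of the middle RPA subunit, and PQ libraries lay among the controls. Timeless had 65.3 and 60.1 CPM with NAC, against 45.9 and 49.1 CPM in controls, a 1.32-fold rise (0.40 ± 0.11, adjusted p = 0.014). The rise of Timeless was lost without control replicate 1 (adjusted p = 0.061) or NAC replicate 1 (0.14), over a range of 0.0064 to 0.14. Of the 40 genes only Timeless was called both higher with NAC and lower with PQ. By sign alone, 26 of the 40 were positive with NAC and all 40 were negative with PQ.

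Pold2, the second subunit of polymerase delta, had 65.6 and 65.7 CPM with NAC, against 83.7 and 78.1 CPM in controls. The groups were separate, and Pold2 fell 1.23-fold (-0.30 ± 0.10, adjusted p = 0.042), just inside the threshold. The call was lost under DESeq2 (adjusted p = 0.096), with library size scaling (0.09), with only the groups compared (0.065), with limma (0.09 and 0.092) and without control replicate 1 (0.17), PQ replicate 1 (0.069), PQ replicate 2 (0.064), NAC replicate 1 (0.17) or NAC replicate 2 (0.16), over a range of 0.041 to 0.17. With PQ it had 47.1 and 50.4 CPM, a fall of 0.73 ± 0.10 against control (adjusted p = 9.2e-05). Rrm2 had 277 and 258 CPM with NAC, against 325 and 316 CPM in controls (-0.26 ± 0.09, adjusted p = 0.051), and passed under DESeq2 (0.042) and the robust fit (0.049), over a range of 0.042 to 0.29. Rrm1 averaged 458 ± 5.59 CPM with NAC and 443 ± 27.9 CPM in controls (0.05 ± 0.09, adjusted p = 0.77). The FPKM ratio of Rrm2 to Rrm1 was 1.10 and 1.04 with NAC, below 1.28 and 1.25 with PQ and 1.29 and 1.37 in controls. Pola2, the accessory subunit of polymerase alpha, had 108 and 99.1 CPM with NAC, against 121 and 122 CPM in controls (-0.23 ± 0.09, adjusted p = 0.1). Dbf4 had 111 and 91.9 CPM with NAC, against 108 and 121 CPM in controls, with groups that overlapped (-0.17 ± 0.11, adjusted p = 0.3). At the other end, Gins3 had 14.7 and 12.6 CPM with NAC, against 9.70 and 10.3 CPM in controls (0.45 ± 0.17, adjusted p = 0.082). Orc1 averaged 19.7 ± 0.379 CPM with NAC and 14.7 ± 1.81 CPM in controls (SD, n = 2 each), without overlap (0.42 ± 0.16, adjusted p = 0.068). Orc1 passed with library size scaling (adjusted p = 0.044) and without control replicate 1 (0.041), over a range of 0.041 to 0.29.

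Set directly against each other, PQ libraries lay below NAC libraries in all 40 genes without overlap, where 32.9% of all genes tested lay below and 33.1% above. The test called 36 lower and 0 higher, where 15.1% of all genes were lower and 15.5% higher, and the median log2 fold change was -0.68, against 0.00 over all genes. No gene was higher at an unadjusted p under 0.05, under DESeq2 or under limma. The widest differences were in Timeless (28.0 and 25.4 CPM with PQ, 65.3 and 60.1 CPM with NAC), 2.35-fold lower (adjusted p = 2.8e-07), and in Pole (34.8 and 33.9 CPM with PQ, 79.6 and 81.0 CPM with NAC), 2.34-fold lower (adjusted p = 2.6e-07). Lig1 was 2.08-fold lower, with 70.8 and 66.9 CPM with PQ and 144 and 141 CPM with NAC. Rpa2, which had not passed with PQ against control, was 1.83-fold lower with PQ than with NAC (-0.87 ± 0.14, adjusted p = 0.00014). Orc1 (-0.74 ± 0.16, adjusted p = 0.0018), Gins1 (-0.52 ± 0.17, adjusted p = 0.023) and Gins3 (-0.65 ± 0.18, adjusted p = 0.0092) passed in this comparison alone, unlike Rpa2, which also rose with NAC against control. Rpa1 (-0.20 ± 0.09, adjusted p = 0.097), Rpa3 (-0.39 ± 0.16, adjusted p = 0.077), Orc6 (-0.27 ± 0.13, adjusted p = 0.12) and Gins4 (-0.29 ± 0.12, adjusted p = 0.071) did not pass. Of the 36 calls 26 held whichever library was left out. The 10 that did not were Pola2, Pold2, Pole2, Rfc1, Rfc4, Dbf4, Gins1, Gins3, Rrm2 and Tyms. Without PQ replicate 2, 9 of them were lost (all but Pold2, adjusted p 0.063 to 0.36), without PQ replicate 1 Pold2 (0.051) and Rrm2 (0.061), and without NAC replicate 1, 8 of them (all but Pold2 and Rfc1, 0.066 to 0.22). Tyms moved furthest, with a difference of -0.34 (adjusted p = 0.029, range 0.011 to 0.36) and of -0.19 without PQ replicate 2. DESeq2 did not call Pole2 (adjusted p = 0.056), Gins1 (0.085), Gins3 (0.05) or Tyms (0.055).

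**Figure D4:**
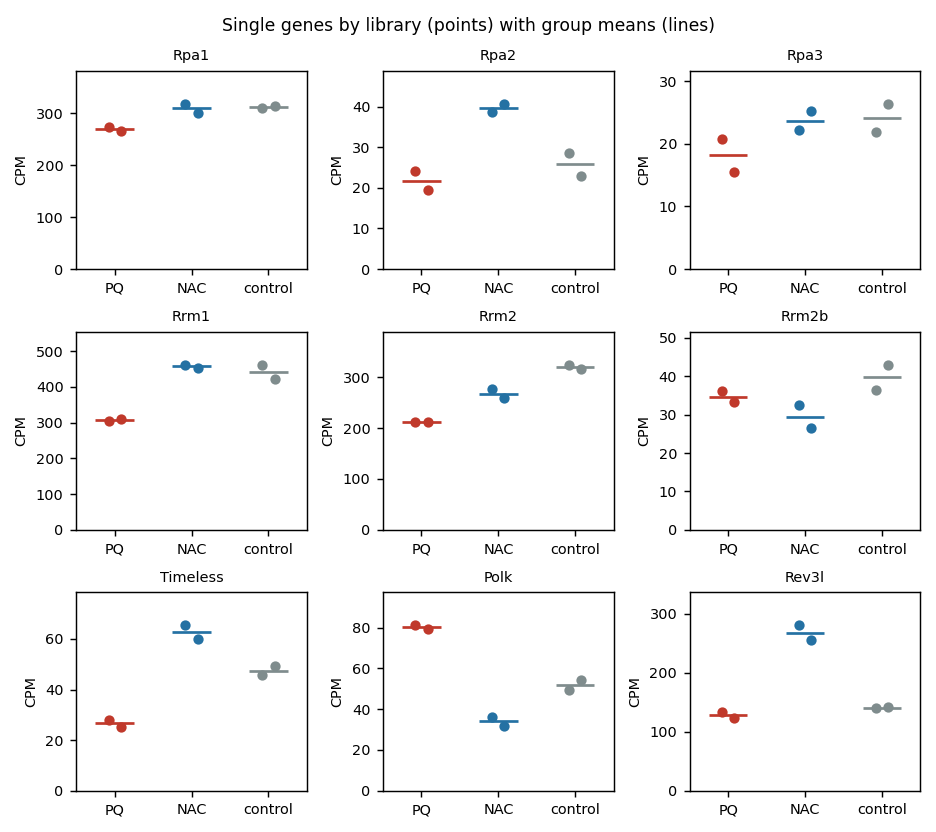
CPM in each library (points) with group means (lines) for the 3 RPA subunits, the reductase genes Rrm1, Rrm2 and Rrm2b, the fork protection gene Timeless, and the polymerases Polk and Rev3l (Rrm2b, Polk and Rev3l are not among the 40), with PQ left, NAC in the middle and control right. Rpa2 stands high in both NAC libraries at 38.7 and 40.7 CPM, while Rrm1 stands low in both PQ libraries.

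Across the 3 comparisons, 30 of the 40 genes were lower with PQ than in controls and than with NAC and were not called between NAC and control. Over all genes tested 8.8% were lower with PQ than in controls and 15.1% than with NAC. The share of all genes with the joint pattern was not counted. Both PQ comparisons use the same PQ libraries, so a gene called in both was not called independently. Rpa1, Rpa3 and Orc6 were called in none of the 3 comparisons.

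Other genes of the same pathways, from lists that exclude the 40, moved in part alike. These lists too were chosen with earlier results of these data known. Of 39 other fork and origin genes 24 fell with PQ, with a median log2 fold change of -0.55, 4 rose and 1 fell with NAC, with a median of 0.13, and 27 were lower and 1 was higher with PQ than with NAC. Over all genes tested 8.8% fell with PQ, and 8.65% rose and 9.26% fell with NAC. Against NAC, 15.1% of all genes were lower and 15.5% higher with PQ. The count of 4 higher with NAC is close to the share of all genes. The MCM helicase subunits Mcm5 (-0.93 ± 0.10), Mcm6 (-0.90 ± 0.10), Mcm3 (-0.87 ± 0.10) and Mcm2 (-0.86 ± 0.10) fell with PQ (largest adjusted p = 1.1e-05). With NAC, Mcm4 (0.48 ± 0.11, adjusted p = 0.0049) and the loading factor Cdc6 (0.60 ± 0.14, adjusted p = 0.0052) rose. Without control replicate 2 or NAC replicate 1 these calls were lost, Mcm4 at adjusted p = 0.064 and 0.065 (up to 0.065 over the alternatives) and Cdc6 at 0.053 and 0.067 (up to 0.067), and the rise of Mcm4 was 0.31 without control replicate 2. The other genes called with NAC were Mcm10 (0.39 ± 0.12, adjusted p = 0.029, range 0.014 to 0.18), Wdhd1 (0.52 ± 0.12, adjusted p = 0.0068, and 0.061 without NAC replicate 1, range 0.0022 to 0.061) and Mtbp. Mtbp fell by 0.55 ± 0.16 (adjusted p = 0.02), a call lost without control replicate 2 (0.38, where the fall was 0.21), NAC replicate 1 (0.082) or NAC replicate 2 (0.09) and with limma (0.12 and 0.11), over a range of 3.6e-05 to 0.38. The gene higher with PQ than with NAC was Pold4 (0.37 ± 0.12, adjusted p = 0.023, range 0.013 to 0.23). Of 18 other genes of deoxynucleotide supply and control 7 fell with PQ, with a median of -0.16, while with NAC 2 rose and 1 fell, with a median of 0.11. The NAC counts are close to the shares over all genes, 8.65% higher and 9.26% lower, and 8.8% of all genes fell with PQ. Shmt1, an enzyme of folate metabolism, rose with NAC (0.44 ± 0.12, adjusted p = 0.018), a call lost without control replicate 2 or NAC replicate 1 (0.13 in both, range 0.0052 to 0.13). Rrm2b, the p53-controlled counterpart of Rrm2, had 36.2 and 33.2 CPM with PQ, 32.4 and 26.5 CPM with NAC and 36.4 and 43.0 CPM in controls. It did not pass with PQ (-0.19 ± 0.13, adjusted p = 0.34) and fell with NAC (-0.43 ± 0.13, adjusted p = 0.031), a call lost under DESeq2 (0.075), library size scaling (0.051) and limma (0.11 in both settings), and without control replicate 2 (0.21) or NAC replicate 2 (0.28), over a range of 0.0098 to 0.28. Of 17 genes of purine and pyrimidine synthesis 11 fell with PQ, with a median of -0.38, led by Prps1, which makes the ribose donor of nucleotides (-0.89 ± 0.11, adjusted p = 4e-05). With NAC their fold changes ran from -0.51 to 0.23, with a median of -0.03, and 17 of 17 did not pass.

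**Figure D5:**
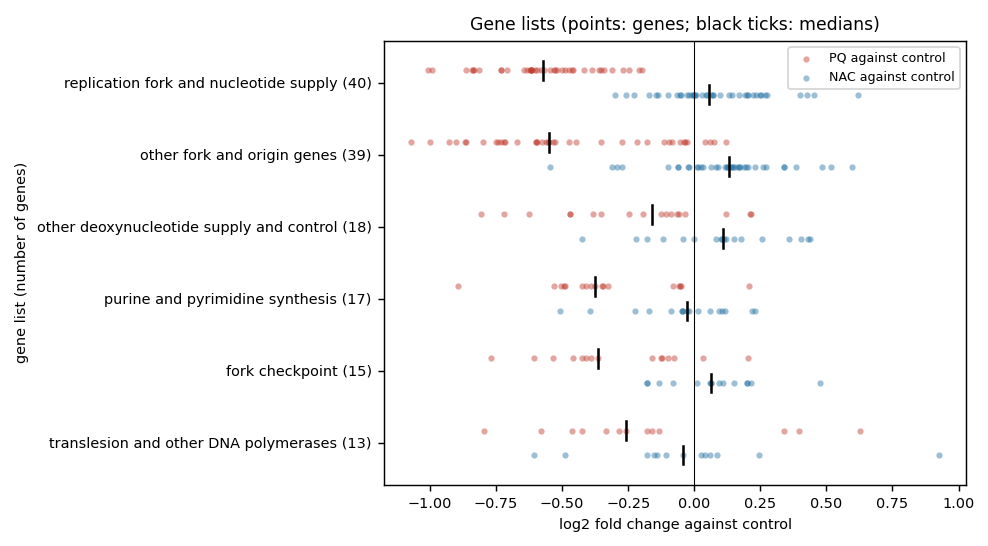
Log2 fold changes with PQ (red) and NAC (blue) against control for the 40 genes and 5 further lists, with 1 point per gene and black ticks at the medians. The PQ medians run from -0.57 for the 40 genes to -0.16 for other deoxynucleotide genes, and the NAC medians lie between -0.04 and 0.13.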

How the data were processed

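RNA sequencing of 6 libraries, 2 each of PQ, NAC and control cells, was analysed from 1 deposited table per library. The tables hold the expected count and FPKM of each gene, both computed by the authors, per the file headers. Tools listed in the submitters' processing notes, with no role, are RSEM, HISAT2 2.0.4 and Bowtie2 2.2.5, with mm10 as genome. Gene names were matched to 17199 of 17254 identifiers, and the rest held 0.0724% to 0.0789% of a library's counts. Genes that a table did not list were taken as 0. Depth was 9680436 to 10698241 summed expected counts per library.

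Expected counts were rounded to whole numbers, filtered with filterByExpr (minimum count 10, minimum total 15, leaving 12813 genes) and scaled by TMM. They were tested with edgeR 4.0.16 (limma 3.58.1, R 4.3.3) by quasi-likelihood, with all 6 libraries in 1 fit of 3 group means and 3 residual degrees of freedom. Benjamini-Hochberg adjustment covered all genes tested, with a threshold of 0.05. Adjusted p is edgeR's unless another tool is named, and p for a gene is two-sided. The SE was taken as the size of the log2 fold change over the root of F. "Range" beside an adjusted p is its range over the alternatives, which were DESeq2 1.42.0, other scalings, no filter, a robust fit, only the groups compared, limma on log2(FPKM + 1) or log2(FPKM + 0.1), and leaving out each library. The script was tested on simulated data. The members and all lists were chosen with earlier results of these data known. Per-library values are given for the members with the largest and smallest fold change with PQ in each role and for the 4 at each end with NAC, and for others chosen after their values were seen. Of other lists up to 4 called genes with the smallest p per comparison could be named, and 1 such gene is not reported here. Python 3.11.15, pandas 2.3.3 and matplotlib 3.10.9 made tables and figures.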

Additional observations from a re-analysis of the deposited data

How the results depend on the processing

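The count of genes lower with PQ stayed within 1.5 times of 33 in every alternative, at 24 to 33 when single libraries were left out, and that of PQ against NAC within 1.5 times of 36, at 27 to 38. The small NAC counts (2 higher, 1 lower) moved: 5 higher and 0 lower with library size scaling, 2 lower in the robust fit, and 0 lower with only the groups compared and with limma on log2(FPKM + 1) or log2(FPKM + 0.1). With single libraries left out they ranged from 1 to 4 higher and from 0 to 1 lower. The cause was not tested. With NAC, 40 values of 16 genes close to 0 changed sign over 14 alternatives, between -0.16 and 0.12, with no adjusted p under 0.46. The labels pair no libraries, and the replicate numbers only name them. Library numbers in the titles run from 8 to 10 and from 11 to 13 with 1 library of each group in each run, and the labels do not say that the runs are batches. A fit with the runs as a replicate block, added after seeing the data, gave 33 lower with PQ, 36 lower in PQ against NAC, and with NAC 2 higher and 0 lower (Pold2 lost at adjusted p = 0.076). Deviations from the group means correlated between same-run libraries at -0.0679 (PQ and control), -0.112 (NAC and control) and 0.112 (PQ and NAC) across 12813 genes. With 2 libraries a group, a gene that did not pass may still differ.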

Other observations

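The checkpoint that guards stalled forks and the specialised DNA polymerases were measured in the same libraries. Of 15 fork checkpoint genes 6 fell with PQ, with a median log2 fold change of -0.36, and 1 rose with NAC, with a median of 0.06. Over all genes tested 8.8% fell with PQ and 8.65% rose with NAC, so the NAC count is close to the share of all genes. Chek1, the kinase that restrains the cycle when forks stall, had 25.1 and 19.3 CPM with PQ, against 36.3 and 39.2 CPM in controls (-0.77 ± 0.14, adjusted p = 0.0011). Atr, the kinase that activates it, fell by 0.46 ± 0.11 with PQ (adjusted p = 0.0058), a call lost in both limma settings (0.056) and without PQ replicate 2 (0.092, range 0.0018 to 0.092). Hus1, part of the checkpoint clamp, had 56.6 and 58.4 CPM with NAC, against 42.6 and 40.1 CPM in controls. It rose 1.39-fold with NAC (adjusted p = 0.0037) and did not pass with PQ (-0.08 ± 0.11, adjusted p = 0.69).

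Of 13 translesion and other DNA polymerases 2 rose and 2 fell with PQ, and 1 rose and 2 fell with NAC. Over all genes tested 9.07% rose and 8.8% fell with PQ, and 8.65% rose and 9.26% fell with NAC, and with 13 genes these counts are read only as single genes. Polk, a translesion polymerase, had 81.1 and 79.4 CPM with PQ, 36.1 and 32.0 CPM with NAC and 49.5 and 54.4 CPM in controls. It rose 1.54-fold with PQ (adjusted p = 0.00049) and fell 1.52-fold with NAC (adjusted p = 0.00073), and the 3 groups did not overlap. Rev3l, the catalytic subunit of polymerase zeta, had 134 and 123 CPM with PQ, 280.3 and 256 CPM with NAC and 140.3 and 142 CPM in controls. It rose 1.90-fold with NAC (adjusted p = 1.8e-06) and did not pass with PQ (-0.13 ± 0.10, adjusted p = 0.38). Mad2l2, its accessory subunit, had 22.5 and 23.5 CPM with NAC, against 30.0 and 34.6 CPM in controls, and fell by 0.49 ± 0.13 (adjusted p = 0.014). That call was lost without control replicate 2 (0.11), NAC replicate 1 (0.1) or NAC replicate 2 (0.057), over a range of 0.0055 to 0.11. Rev1, which recruits other translesion polymerases, rose 1.27-fold with PQ (adjusted p = 0.03), a call lost under DESeq2 (0.066) and without control replicate 2 (0.12), PQ replicate 1 (0.13) or PQ replicate 2 (0.15), over a range of 0.019 to 0.15. Polh (-0.46 ± 0.14, adjusted p = 0.029) and Poln (-0.80 ± 0.27, adjusted p = 0.046), at 19.0 and 3.03 CPM with PQ, fell with PQ. Both calls were lost under DESeq2 (0.083 and 0.18), with limma (0.056 to 0.068), and without control replicate 1 (0.19 and 0.32), PQ replicate 1 (0.11 and 0.15) or PQ replicate 2 (0.17 and 0.2), over ranges of 0.013 to 0.19 for Polh and 0.022 to 0.32 for Poln. The call of Poln was also lost with library size scaling (0.057), with only the groups compared (0.058) and without NAC replicate 1 or NAC replicate 2 (0.058 in both), and its fall was 0.53 without control replicate 1.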
